A study of Mus musculus with 6 samples.

Results

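The genes described here run or mark the cell division cycle. They are 40 genes taken by name from the 43280 gene rows of the unfiltered raw count table, and all 40 had counts in every library. The rule names genes and uses no measured values, but the list was chosen with earlier results of these data known. By role they are 8 G1 cyclins and kinases (Ccnd1, Ccnd2, Ccnd3, Cdk4, Cdk6, Ccne1, Ccne2 and Cdk2), 4 inhibitors of cyclin-dependent kinases (Cdkn1a, Cdkn1b, Cdkn1c and Cdkn2c), the transcription factors E2f1 and Myc, 10 DNA replication genes (Pcna, Mcm2, Mcm3, Mcm4, Mcm5, Mcm6, Mcm7, Rrm1, Rrm2 and Tyms), 4 G2 and mitotic cyclins and kinase (Ccna2, Ccnb1, Ccnb2 and Cdk1) and 12 genes of mitosis (Mki67, Top2a, Bub1, Bub1b, Aurka, Aurkb, Plk1, Birc5, Cdc20, Cenpf, Kif11 and Tpx2). RNA was sequenced from submandibular glands (SMGs), the paired salivary glands under the jaw, of female mice. The 6 libraries form 2 groups of 3, WT (labelled Wildtype) and DKO (labelled Hs3st3a1;3b1 DKO), each numbered 1, 4 and 5. In the DKO both heparan sulfate 3-O-sulfotransferase genes are inactivated in the germline, Hs3st3a1 by a frameshift deletion in its exon 1 and Hs3st3b1 by a LacZ cassette, so all cells carry both alleles and no cell type is targeted. The glands are adult per the study, which names WT littermates as controls. The study keeps its knockout lines on a C57BL/6 background. Age and founder line are not given in the sources used here. Whether each gland came from a different mouse was not stated either, so p-values measure only the spread between these libraries.

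A dividing cell passes through G1, in which D-type cyclins with Cdk4 or Cdk6, and then E-type cyclins with Cdk2, inactivate the retinoblastoma protein and release the E2F factors. E2F factors switch on the replication genes for S phase, and a later wave of genes, read through CCAAT boxes and the cell cycle genes homology region (CHR), equips the cell for G2 and mitosis. Transcripts of the later wave are made almost only in cycling cells, whereas D-type cyclins and Cdk inhibitors are also made in resting cells. In the adult SMG most acinar and duct cells are at rest. The study asked how loss of 3-O-sulfation alters the gland and its signaling by fibroblast growth factor receptors, and it names Ccnd1 and Mki67 as markers of proliferation.

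Total counts were 23674258 to 29611975 per library, and the 40 genes together held 5491 to 8767 of them. In the bulk tissue, fewer cells of a type and less RNA per cell cannot be told apart. The targeted genes did not separate the groups. Hs3st3b1 had 173, 203 and 261 counts in WT 1, 4 and 5 and 255, 120 and 189 in DKO 1, 4 and 5, and Hs3st3a1 had 15, 11 and 15 against 11, 8 and 13. These are counts over the whole gene, and reads over the deletion and the cassette were not examined, so they do not check the labels. The groups are named below as the libraries labelled WT and DKO. Of the 18606 rows with at least 10 counts in sum, DESeq2 called 189 higher (1.02%) and 350 lower (1.88%) under the DKO label, at a Benjamini-Hochberg adjusted p under 0.05. Normalized counts below are counts divided by the size factor of the library. With total counts in place of median-of-ratios size factors, 62 were higher and 1407 lower, and the median log2 fold change of all rows moved from 0.00 to -0.23.

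None of the 40 cell cycle genes passed the DESeq2 test, whereas 2.9% of all rows tested did. The edgeR quasi-likelihood test called 0 of the 40 and 0.0537% of all rows, and limma-voom 0 of the 40 and 0.0376% of all rows. At an unadjusted DESeq2 p under 0.05 there were 2 of the 40 (Cdkn2c and Cdc20), which is 5% against 12.2% of all rows, and edgeR had 2 of 40 against 15% of all rows. The 3 values of one group all lay above the 3 of the other for 7 of the 40 genes, 17.5% against 20.3% of all rows. Of these 7, Cdkn2c, Pcna, Aurka and Cdc20 were higher in the libraries labelled DKO and Ccnd3, Ccne2 and Myc were lower, while 9.85% and 10.5% of all rows did not overlap in these directions. A fold change of 2 lay outside the 95% interval for 19 of the 40 genes and inside it for 21. The 19 were 5 of the 8 G1 genes, 1 of the 4 inhibitors, both transcription factors, 9 of the 10 replication genes, none of the 4 G2 cyclins and kinase and 2 of the 12 mitotic genes, so the data bound the change of the replication genes far more tightly than that of the mitotic genes.

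**Figure D1:**
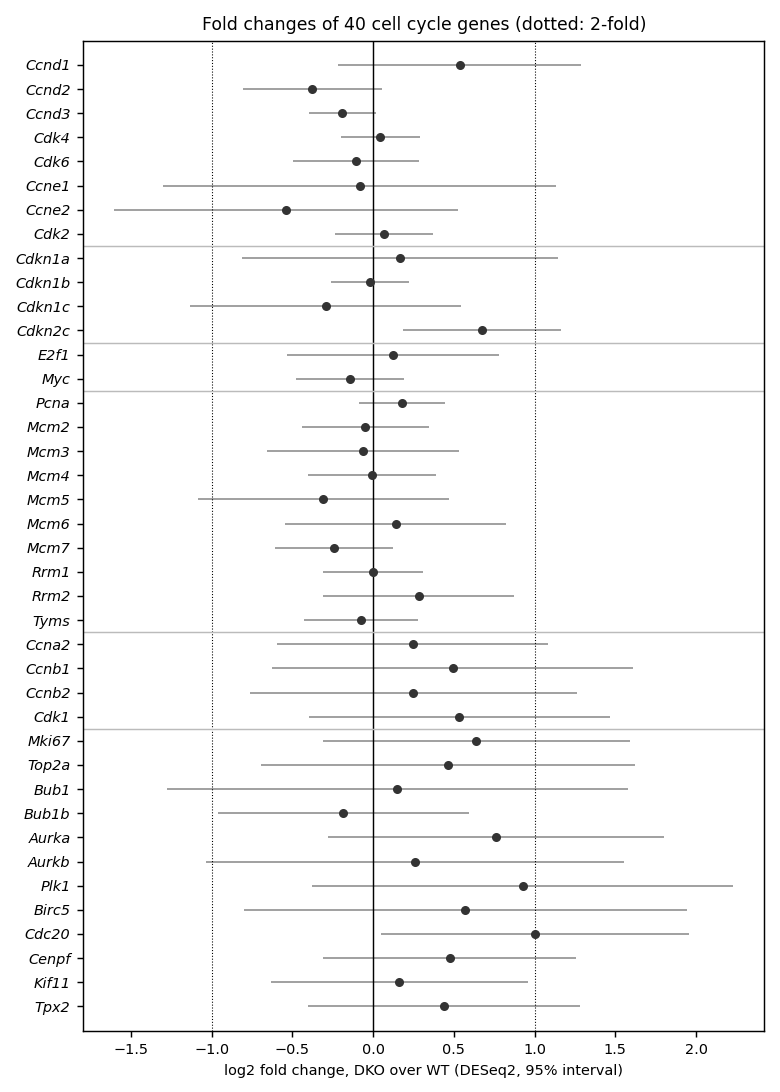
Log2 fold change of each of the 40 genes, libraries labelled DKO over those labelled WT (horizontal axis), with its 95% interval from DESeq2, ordered by role and separated by lines (vertical axis). Of the 16 G2 and mitotic genes at the bottom 15 lie to the right of 0 with wide intervals, whereas the 10 replication genes lie between -0.31 and 0.28.

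The G1 cyclins and kinases went in no common direction. Ccnd1 (cyclin D1, chr7:144929931-144939925, minus strand, in GRCm38), the growth factor-induced D-type cyclin, had 1291, 953 and 978 normalized counts in libraries WT 1, 4 and 5 and 1640, 2139.6 and 889 in DKO 1, 4 and 5. The libraries labelled DKO held both the highest and the lowest value of the 6, so the groups overlap. Its log2 fold change was 0.54 (SE 0.38, 95% interval -0.22 to 1.29, adjusted p = 0.63 by DESeq2). One library decides this call. Without DKO 5 the log2 fold change of Ccnd1 was 0.82 and its DESeq2 adjusted p 0.0021, with 0.906% of all rows called in that fit, and without DKO 4 it was 0.24. Of the exon bases of Ccnd1, 23.4% also belong to LTO1 on the other strand, and unstranded reads from these bases cannot be assigned to either gene.

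Ccnd2 (cyclin D2, chr6:127125162-127152193, minus strand) had 245, 164 and 236 normalized counts in libraries WT 1, 4 and 5 against 202, 153 and 142 in DKO 1, 4 and 5. WT 4 fell among the libraries labelled DKO, and the log2 fold change was -0.38 (SE 0.22, adjusted p = 0.48 by DESeq2). Ccnd3 (cyclin D3, chr17:47505051-47599691, plus strand), the D-type cyclin prominent in lymphocytes and differentiated cells, had 1072, 1146 and 1055 normalized counts against 1019, 948 and 899. All values of the libraries labelled DKO lay below those labelled WT, by a log2 fold change of -0.19 (SE 0.11, 95% interval -0.40 to 0.02, adjusted p = 0.43 by DESeq2). With total counts as size factors the log2 fold change of Ccnd3 was -0.42 and its DESeq2 adjusted p 0.021, in a fit that called 7.9% of all rows.

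Ccne2 (cyclin E2, chr4:11191351-11204779, plus strand), a partner of Cdk2 at the start of S phase, had 18.8, 19.6 and 18.8 normalized counts in libraries WT 1, 4 and 5 and 13.3, 17.8 and 8.07 in DKO 1, 4 and 5. The groups do not overlap, yet the libraries labelled DKO spread 2.20-fold among themselves and the log2 fold change of -0.54 had an SE of 0.54 (adjusted p = 0.78 by DESeq2). Its sister Ccne1 ranged from 7.83 to 20.8 normalized counts for the WT label and from 9.49 to 16.7 for the DKO label. The kinases varied less between libraries. Cdk4, the main partner of cyclin D, lay between 648 and 679 normalized counts for the WT label and between 625 and 779 for the DKO label, and Cdk2 between 237 and 259 and between 249.8 and 285. Cdk6 lay between 164 and 186 and between 129.6 and 182. Over the 8 G1 genes the median log2 fold change was -0.09, with 3 above and 5 below 0, beside 0.00 for all rows tested, of which 50.2% were above 0.

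Among the inhibitors, Cdkn2c (p18, chr4:109660876-109667189, minus strand), which blocks Cdk4 and Cdk6, had the lowest p of the 40 genes. It had 75.2, 60.6 and 57.3 normalized counts in libraries WT 1, 4 and 5 and 110.1, 97.2 and 100.3 in DKO 1, 4 and 5. Every library labelled DKO lay above every library labelled WT, with a mean of 103 ± 6.71 (SD, n = 3) against 64.4 ± 9.51. The log2 fold change was 0.67 (SE 0.25, 95% interval 0.19 to 1.16), and it missed the threshold (adjusted p = 0.12 by DESeq2). No other annotated gene shares exon bases with Cdkn2c, and leaving out any 1 library kept its log2 fold change between 0.60 and 0.80.

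Cdkn1a (p21, chr17:29090976-29100727, plus strand), a target of p53, had 20.8, 13.7 and 20.6 normalized counts in libraries WT 1, 4 and 5 against 27.5, 15.7 and 18.4 in DKO 1, 4 and 5. DKO 1 was highest and WT 4 lowest, with the other 4 libraries between, and the log2 fold change was 0.17 (SE 0.50, adjusted p = 0.95 by DESeq2), a sign that turned without WT 4, without DKO 1 and with total counts as size factors. Cdkn1b (p27), a brake of resting cells, was the most abundant inhibitor, at 512 to 591 normalized counts for the WT label and 515 to 579.7 for the DKO label. Cdkn1c (p57) lay between 29.3 and 36.7 and between 15.7 and 38.0. Thus 1 of the 4 inhibitors had groups that did not overlap, compared with 20.3% of all rows, and the 4 had a median log2 fold change of 0.07.

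Myc (chr15:61985391-61990374, plus strand), a transcription factor that promotes entry into the cycle, had 190.0, 180.0 and 186 normalized counts in libraries WT 1, 4 and 5 and 168, 167 and 169 in DKO 1, 4 and 5. These were among the smallest spreads of the 40 genes, and the groups do not overlap. The log2 fold change was -0.14 (SE 0.17, 95% interval -0.48 to 0.19, adjusted p = 0.84 by DESeq2). E2f1, the activating E2F factor, lay between 34.2 and 43.5 normalized counts for the WT label and between 38.0 and 45.5 for the DKO label.

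**Figure D2:**
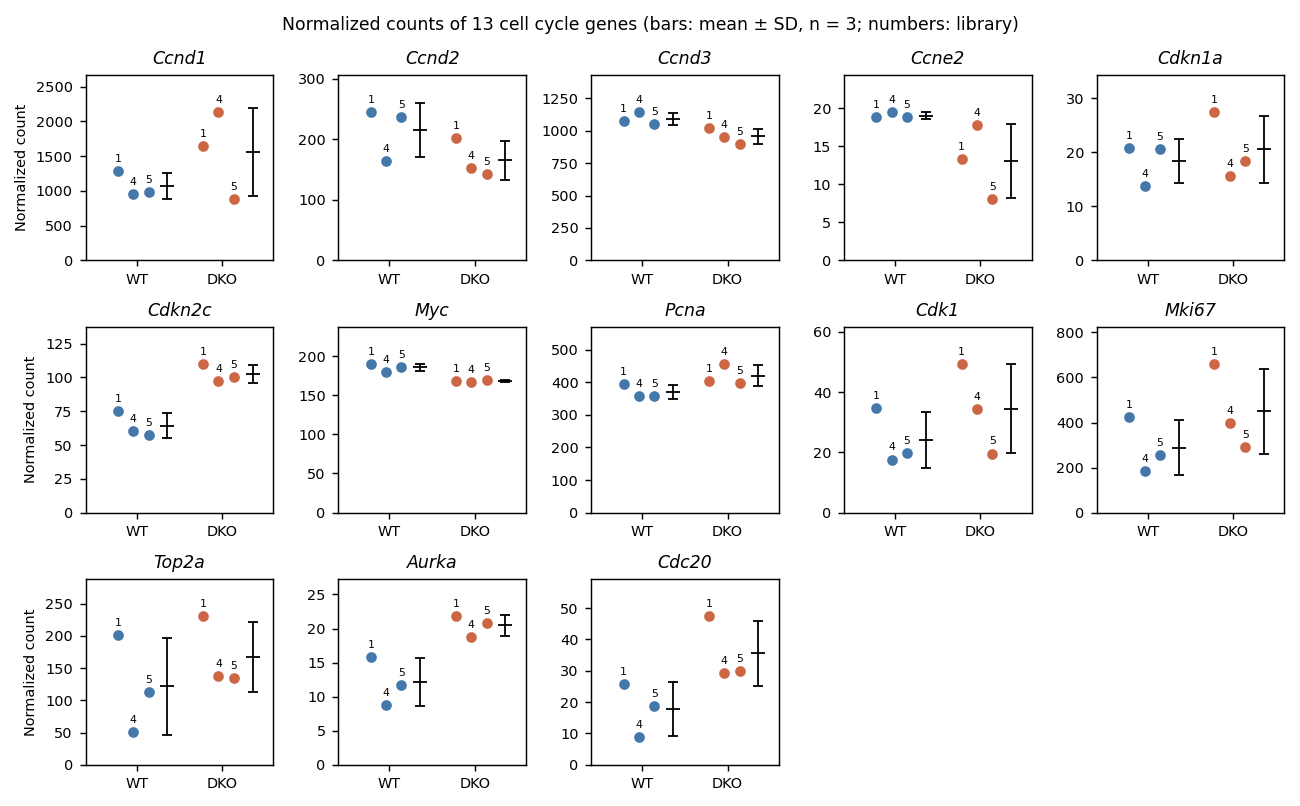
Normalized counts (vertical axes, from 0) of the 13 genes given library by library, in the libraries labelled WT and DKO (horizontal axes). Points are libraries with their number, and bars are the mean ± SD of n = 3. Cdkn2c, Pcna, Aurka and Cdc20 are higher in each library labelled DKO, Ccnd3, Ccne2 and Myc are lower in each, and the remaining 6 overlap.

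The replication genes differed little between the groups. Pcna (chr2:132249162-132253314, minus strand), the sliding clamp of DNA polymerase, had 396, 358 and 357 normalized counts in libraries WT 1, 4 and 5 and 403, 457 and 399 in DKO 1, 4 and 5. The groups just fail to overlap, with WT 1 close below DKO 5, and the log2 fold change was 0.18 (SE 0.14, 95% interval -0.09 to 0.45, adjusted p = 0.65 by DESeq2). The same gene had a log2 fold change of -0.06 with total counts as size factors. The subunits of the Mcm2 to Mcm7 helicase, which unwinds DNA at replication origins, had log2 fold changes from -0.31 (Mcm5) to 0.14 (Mcm6). Mcm6 was the least even of them in the libraries labelled WT, from 53.8 to 177 normalized counts, a 3.30-fold range, against 107 to 129.98 in those labelled DKO. Rrm1 and Rrm2, the subunits of the enzyme that makes deoxyribonucleotides, had log2 fold changes of 0.00 and 0.28, and Tyms, which makes thymidylate, -0.07. Over the 10 replication genes 4 were above and 6 below 0, with a median of -0.03.

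The summed counts of the G2 and mitotic genes leaned upward in the libraries labelled DKO, but by less than the SD within each group. For Cdc20 and Aurka alone, 2 of the 16, the groups did not overlap, while 9.85% of all rows did not overlap in this direction. Of the 16 genes, 15 had a log2 fold change above 0, compared with 50.2% of all rows. Only Bub1b, a spindle checkpoint kinase, was below it (-0.18). In 7 of the 16 (Ccna2, Ccnb2, Bub1, Bub1b, Aurkb, Cenpf and Kif11) the sign turned when 1 library was left out, and in 9 it did not. The median of the 16 was 0.47, beside 0.00 for all rows, and none passed the test. The sum of their normalized counts was 1109, 469.5 and 656 in WT 1, 4 and 5 and 1469.6, 933 and 733 in DKO 1, 4 and 5. WT 1 lay above DKO 4 and DKO 5, so the groups overlap, and the means were 745 ± 329 (SD, n = 3) and 1045 ± 381. In CPM, which scales by the total count in place of size factors, the 16 genes stood at 47.4, 17.8 and 26.8 in libraries WT 1, 4 and 5 and at 54.8, 30.2 and 24.6 in DKO 1, 4 and 5, so on this scale DKO 5 fell below WT 5.

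The lean rested on which libraries were in each group. Without DKO 1 the median log2 fold change of the 16 genes was 0.08, without WT 4 it was 0.27 and without WT 1 it was 0.85. When both libraries numbered 1 were left out, an alternative chosen after the data were seen, it was 0.45. Mki67 and Top2a gave 50.2% to 60.6% of the counts of the 16 in each library. Without them the sum of normalized counts was 484, 234 and 286 in WT 1, 4 and 5 and 579, 399 and 308 in DKO 1, 4 and 5, in the same order of libraries.

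Mki67 (chr7:135689784-135716361, minus strand), the antigen Ki-67 that coats mitotic chromosomes and is the usual marker of cycling cells, had 425, 185 and 257 normalized counts in libraries WT 1, 4 and 5 and 660.3, 397 and 291 in DKO 1, 4 and 5. DKO 1 was highest and WT 4 lowest, while WT 1 lay above DKO 4 and DKO 5. Its log2 fold change was 0.64 (SE 0.48, 95% interval -0.31 to 1.59, adjusted p = 0.66 by DESeq2). Leaving out 1 library gave from 0.25 (without DKO 1) to 1.02 (without WT 1), and its lowest DESeq2 adjusted p under any alternative was 0.093, without WT 1. Top2a (chr11:98992943-99024189, minus strand), the topoisomerase that untangles replicated chromosomes, had 201, 50.9 and 113 normalized counts in libraries WT 1, 4 and 5 and 231, 137 and 135 in DKO 1, 4 and 5. The libraries labelled WT spread 3.95-fold, more than any other of the 40 genes in that group, and the log2 fold change was 0.46 (SE 0.59, adjusted p = 0.86 by DESeq2), from 0.10 without WT 4 to 1.03 without WT 1.

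Cdk1 (chr10:69335146-69352938, minus strand), the kinase that starts mitosis, had 34.6, 17.6 and 19.7 normalized counts in libraries WT 1, 4 and 5 and 49.3, 34.5 and 19.6 in DKO 1, 4 and 5. DKO 5 lay among the libraries labelled WT, and the log2 fold change was 0.53 (SE 0.48, adjusted p = 0.74 by DESeq2). Its cyclin partners Ccna2, Ccnb1 and Ccnb2 had log2 fold changes of 0.24, 0.49 and 0.25. Cdc20 (chr4:118432901-118437352, minus strand), which activates the anaphase-promoting complex, had the greatest fold change of the 40 genes. It had 25.7, 8.80 and 18.8 normalized counts in libraries WT 1, 4 and 5 and 47.4, 29.3 and 29.98 in DKO 1, 4 and 5. The groups do not overlap, and the log2 fold change was 1.004 (SE 0.49, 95% interval 0.05 to 1.96, adjusted p = 0.32 by DESeq2), from 0.69 without WT 4 to 1.36 without WT 1.

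Aurka (Aurora A, chr2:172356190-172370535, minus strand), the kinase of the spindle poles, had 15.8, 8.80 and 11.6 normalized counts in libraries WT 1, 4 and 5 and 21.8, 18.8 and 20.8 in DKO 1, 4 and 5. Its groups do not overlap either, at a log2 fold change of 0.76 (SE 0.53, adjusted p = 0.61 by DESeq2). Its partner Tpx2 (log2 fold change 0.44) and the polo kinase Plk1 (0.93) were also above 0. The partners Aurkb and Birc5 of the chromosomal passenger complex had log2 fold changes of 0.26 and 0.57, the checkpoint kinase Bub1 had 0.15, the kinetochore protein Cenpf had 0.47 and the spindle motor Kif11 had 0.16. The mean of Aurkb, Birc5 and Plk1 was 8.04 to 10.5 normalized counts for the WT label and 12.4 to 15.2 for the DKO label, a depth at which their SEs were 0.66 to 0.70.

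The G2 and mitotic genes ranked the libraries alike. In 16 of 16, WT 1 was the highest of the libraries labelled WT, compared with 35.9% of all rows tested, and in 14 of 16 WT 4 was the lowest, compared with 35.6%. DKO 1 was the highest of the libraries labelled DKO in 15 of 16, compared with 34.4% of all rows, and DKO 5 the lowest in 13, compared with 32.8%. Over all 6 libraries DKO 1 was highest in 14 of 16 and WT 4 lowest in 12 of 16, compared with 12.2% and 13.02% of all rows. These genes share libraries and are not independent of each other, so the counts are a description. The 2 genes with WT 1 on top were Bub1b and Kif11.

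The replication genes ranked the libraries within a group much the same way, with WT 1 highest of the libraries labelled WT in 8 of 10 and DKO 1 highest of those labelled DKO in 8 of 10. Across the groups they did not, since over the 6 libraries WT 1 was highest in 6 and DKO 1 in 1. Among the 8 G1 genes WT 1 was the highest library labelled WT in 5 and DKO 1 the highest library labelled DKO in 3. The range within a group also differed by role. Within the libraries labelled WT, 11 of the 16 G2 and mitotic genes spread at least 2-fold, with a median of 2.34-fold, compared with 3 of the 10 replication genes and a median of 1.36-fold. Among the 9898 rows with a mean of at least 100 normalized counts, the median range was 1.15-fold, and 2.34% of them spread at least 2-fold. Of the 16 G2 and mitotic genes, Mki67 and Top2a alone reach that mean, so counting error bears more on the other members of the group.

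**Figure D3:**
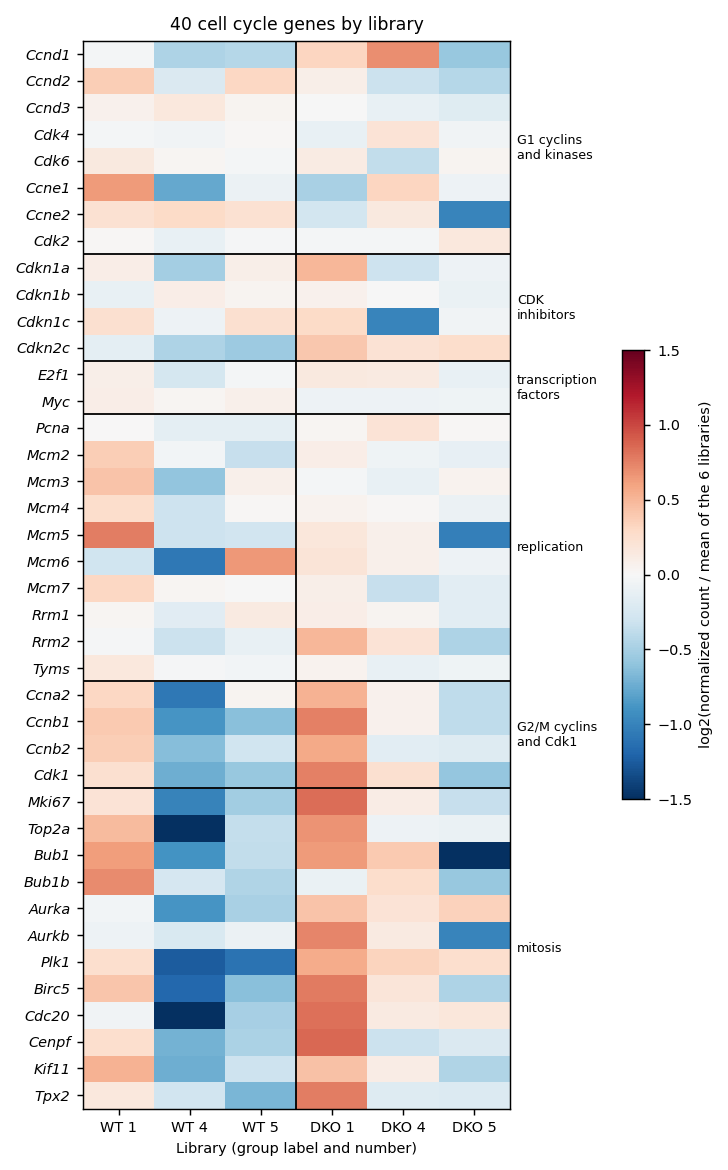
Log2 of the normalized count of each of the 40 genes over its mean in the 6 libraries (color; red above and blue below the mean, with values past the scale drawn in its end color), by library (columns) and gene (rows, grouped by role). Most G2 and mitotic genes at the bottom share a pattern, red in WT 1 and most strongly in DKO 1 and blue in WT 4, which the G1 genes at the top do not show.

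Because these genes ranked the libraries alike, their promoters were examined for the motifs known from their regulation. RefSeq promoters (GRCm38.p6, 250 bases before to 50 after the start of transcription) were listed for 31 of the 40 genes. They were searched on both strands for the CHR (TTTGAA or TTCGAA), the CCAAT box (CCAAT) and an E2F site (TTTGGCGC, TTTCGCGC or TTTCCCGC). A gene with several promoters counted as holding a motif if any of them did. The promoters of Mki67, Top2a, Cdk1 and Cdc20 are shown because they carry most of the mitotic counts (Mki67 and Top2a), encode the kinase that starts mitosis (Cdk1) or had the greatest fold change (Cdc20), and that of Mcm6 to contrast a replication gene. Each is the 250 bases before the start on the minus strand, written 5′ to 3′, with matches to the 3 motifs in capitals. They lie at chr7:135716380-135716629 (Mki67), chr11:99024190-99024439 (Top2a), chr10:69352913-69353162 (Cdk1), chr4:118437344-118437593 (Cdc20) and chr1:128359706-128359955 (Mcm6).
Mki67: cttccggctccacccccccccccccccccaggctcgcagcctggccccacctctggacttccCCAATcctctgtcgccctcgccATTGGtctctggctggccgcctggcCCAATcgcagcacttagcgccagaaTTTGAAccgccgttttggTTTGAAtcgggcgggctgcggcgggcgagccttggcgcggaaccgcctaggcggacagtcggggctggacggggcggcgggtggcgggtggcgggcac
Top2a: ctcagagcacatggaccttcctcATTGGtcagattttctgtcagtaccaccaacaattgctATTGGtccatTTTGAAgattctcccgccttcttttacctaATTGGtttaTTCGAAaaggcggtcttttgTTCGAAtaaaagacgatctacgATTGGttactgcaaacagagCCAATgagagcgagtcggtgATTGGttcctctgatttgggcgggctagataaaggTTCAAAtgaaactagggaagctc
Cdk1: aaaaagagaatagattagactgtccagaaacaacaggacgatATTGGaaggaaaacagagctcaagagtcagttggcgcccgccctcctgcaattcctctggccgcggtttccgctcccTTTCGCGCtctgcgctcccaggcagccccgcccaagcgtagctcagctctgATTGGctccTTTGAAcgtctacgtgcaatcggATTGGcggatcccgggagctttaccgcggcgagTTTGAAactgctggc
Cdc20: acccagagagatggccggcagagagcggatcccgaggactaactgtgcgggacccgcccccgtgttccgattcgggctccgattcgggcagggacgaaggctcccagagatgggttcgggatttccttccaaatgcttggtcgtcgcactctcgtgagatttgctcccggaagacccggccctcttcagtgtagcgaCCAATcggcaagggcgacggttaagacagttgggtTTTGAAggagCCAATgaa
Mcm6: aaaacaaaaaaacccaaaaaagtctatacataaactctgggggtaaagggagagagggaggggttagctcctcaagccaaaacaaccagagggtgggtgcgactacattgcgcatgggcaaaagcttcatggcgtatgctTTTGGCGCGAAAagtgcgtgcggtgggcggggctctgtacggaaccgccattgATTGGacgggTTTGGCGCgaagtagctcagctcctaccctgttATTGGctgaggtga

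In the Mki67 promoter the CHR began 98 and 116 bases before the start of transcription, and in that of Cdc20 it began 18 bases before. The Cdk1 promoter held all 3 motifs, with an E2F site 131 bases before the start. The Mcm6 promoter held E2F sites 47, 106 and 110 bases before the start, the latter pair overlapping on opposite strands, and no CHR. A CHR and a CCAAT box stood together in 11 of the 13 G2 and mitotic genes with a listed promoter (84.6%), compared with 9.65% of the 27025 genes in the table. The exceptions were Ccnb1, with a CCAAT box alone, and Birc5, with neither. Of the replication genes 2 of 9 held both motifs, and of the G1 cyclins and kinases 0 of 5. The CCAAT box by itself was held by 12 of 13 G2 and mitotic genes and by 8 of 9 replication genes. It was held by 2 of 5 G1 genes and by 41.1% of all genes. The CHR was held by 11 of 13 G2 and mitotic genes, 2 of 9 replication genes and 0 of 5 G1 genes, compared with 21.7% of all genes. The E2F site went the other way, being held by 4 of 9 replication genes (Mcm3, Mcm5, Mcm6 and Mcm7), by 1 of 13 G2 and mitotic genes and by 2.12% of all genes. A match is a run of letters in this window and says nothing of whether a factor was bound in these glands. No promoter was listed for Ccnd1, Ccnd2, Ccne2, Cdkn1c, Myc, Mcm4, Ccna2, Aurkb and Tpx2.

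Markers of lymphocytes, cells that can divide, differed between the libraries and are set here beside the mitotic genes. The normalized counts of 7 T cell markers summed to 333, 78.3 and 156 in WT 1, 4 and 5 and to 32.3, 24.04 and 18.4 in DKO 1, 4 and 5. Of the 7, 5 were called lower in the libraries labelled DKO by DESeq2, compared with 1.88% of all rows. Cd8a was at 0 in all 3 libraries labelled DKO. However, edgeR and limma-voom called 0 of the 7 (lowest adjusted p 0.118 and 0.158). The 9 B and plasma cell markers summed to 4132, 978 and 2983 and to 1134, 735 and 261, with 3 of 9 lower by DESeq2 and 0 of 9 called by edgeR or limma-voom (lowest adjusted p 0.118 and 0.264). Among them Ms4a1 was at 0 in DKO 1 and Cd79a in DKO 5. Within the libraries labelled WT, both marker sums and the mitotic sum were highest in WT 1 and lowest in WT 4. Within those labelled DKO, the same sums were all highest in DKO 1 and lowest in DKO 5. This order was not particular to lymphocytes, since the summed myoepithelial markers had it in both groups. They stood at 11639, 10807 and 11112 in WT 1, 4 and 5 and at 7808, 6497 and 5956 in DKO 1, 4 and 5. No other marker list had it in both groups. Between the groups the lymphocyte and mitotic sums were not parallel, since DKO 1 had the highest mitotic sum with a T cell sum of 32.3 where WT 1 had 333. The part of lymphocytes in the levels of the mitotic genes was not tested. Of 6 germinal centre B cell markers 3 had enough counts to be tested, of which DESeq2 called 0 and gave 0 an unadjusted p under 0.05.

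**Figure D4:**
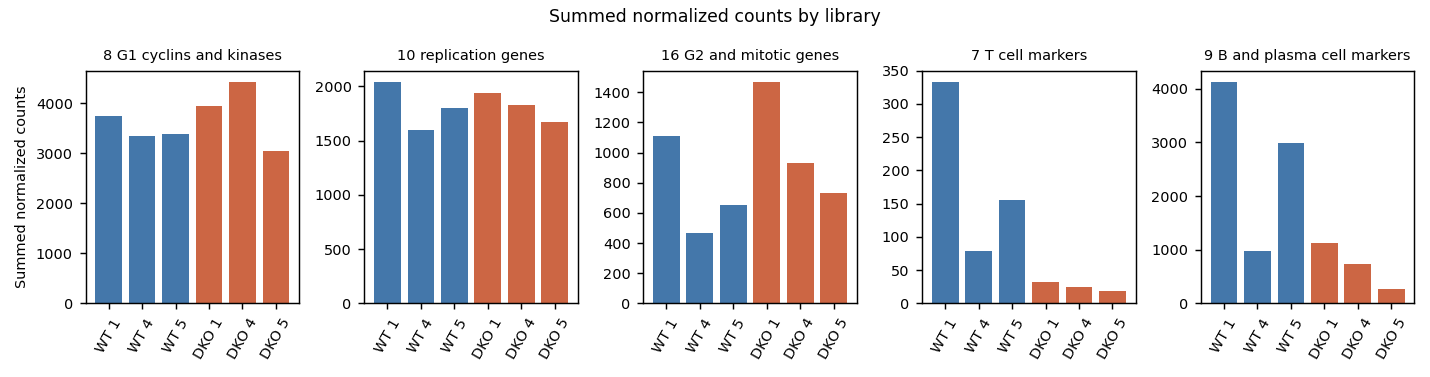
Summed normalized counts per library (vertical axes, each from 0) of the 8 G1 genes, 10 replication genes and 16 G2 and mitotic genes and, for comparison, of 7 T cell and 9 B and plasma cell markers. The mitotic sum is highest in DKO 1 and lowest in WT 4, whereas the T cell sum is at most 32.3 in the libraries labelled DKO and at least 78.3 in those labelled WT.

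The rest of the pathway was 83 genes in 3 lists, of which 82 could be tested. DESeq2, edgeR and limma-voom called 0 of them, compared with 2.9%, 0.0537% and 0.0376% of all rows. An unadjusted DESeq2 p under 0.05 was found for 4, compared with 12.2% of all rows. Among 20 further G1 and pocket protein genes, 3 had an unadjusted DESeq2 p under 0.05, beside the 12.2% of all rows. Their median log2 fold change was -0.02. The lowest p was that of Cks1b, a small subunit of Cdk complexes, with 69.3, 74.3 and 69.9 normalized counts in libraries WT 1, 4 and 5 and 93.9, 129.6 and 112 in DKO 1, 4 and 5. Every library labelled DKO lay above every one labelled WT, and the log2 fold change was 0.65 (SE 0.24, adjusted p = 0.12 by DESeq2). Rb1, the retinoblastoma protein, was named after its values were seen, having the second-lowest p in its list. It had 472, 410 and 452 normalized counts against 355, 323 and 365, and a log2 fold change of -0.36 (adjusted p = 0.14 by DESeq2). With total counts as size factors Rb1 and Ccng2 were called lower.

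Among 24 further replication genes 13 were above 0, with a median log2 fold change of 0.06, and the lowest p was that of Fen1, the flap endonuclease (0.31, adjusted p = 0.56 by DESeq2). Among 38 further G2 and mitotic genes 32 were above 0, compared with 50.2% of all rows, with a median of 0.20. The lowest p was that of Pbk, a mitotic kinase, with 14.8, 4.89 and 6.27 normalized counts in libraries WT 1, 4 and 5 and 38.0, 28.2 and 12.7 in DKO 1, 4 and 5. WT 1 exceeded DKO 5, and the log2 fold change was 1.61 (SE 0.63, adjusted p = 0.16 by DESeq2). These 38 genes ranked the libraries like the 16, with DKO 1 highest of those labelled DKO in 31, WT 4 lowest of those labelled WT in 28 and DKO 1 highest of all 6 in 25.

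Per kilobase of exon, which allows levels of different genes to be compared roughly, most G1 and replication genes stood above most mitotic genes in the libraries labelled WT. The exon length covered every annotated transcript of a gene, so the order of levels depends on that annotation. Ccnd1 was first, at 228 ± 40.1 normalized counts per kilobase (mean ± SD, n = 3), followed by Cdk4 (204 ± 4.84), Pcna (154 ± 9.18), Ccnd3 (124 ± 5.54), Cdkn1b (122 ± 8.90) and Myc (68.2 ± 1.86). Mki67 was 12th of the 40 at 28.7 ± 12.2 and Top2a 21st at 13.5 ± 8.36, while Bub1 and Birc5 came last, at 2.79 ± 1.56 and 2.64 ± 1.53. Of the 39 pairs of neighbours in this order 35 had overlapping libraries, so only the steps from Cdk4 to Pcna, Pcna to Ccnd3, Cdkn1b to Myc and Myc to Mcm7 exceeded the spread. The median level was 31.5 normalized counts per kilobase for the G1 genes and 27.9 for the replication genes, against 6.81 for the G2 cyclins and kinase and 5.28 for the mitotic genes. Apart from Ccnd1, other annotated genes share over 10% of the exon bases of Cdk4 (19.7%), Ccne2 (17.4%), Cdkn1c (30.7%), Mcm7 (12.6%) and Ccna2 (12.5%), whose levels may therefore include reads of those neighbours, and 0.547% to 7.86% of the exon bases of 8 further members.

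**Figure D5:**
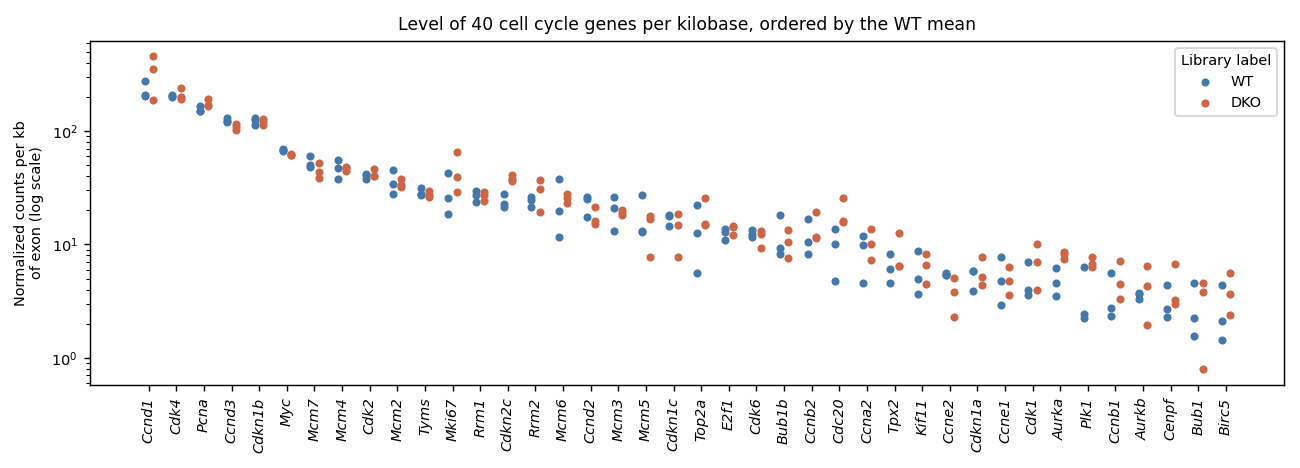
Normalized counts per kilobase of exon (vertical axis, log scale) of the 40 genes ordered by their mean in the libraries labelled WT (horizontal axis), with 1 point per library. Levels fall from Ccnd1 (228) to Birc5 (2.64), and mitotic genes fill most of the lower end.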

How the data were processed

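RNA was prepared as unstranded Nextera XT libraries and sequenced on a HiSeq2500. The values the authors deposited are raw counts, 1 row per gene symbol. Submitters' processing notes list STAR 2.5.2a and the builds GRCm38, mm10 and GRCh38 with no role for each, and the counting tool and annotation are not given in the sources used here. A deposited filtered table of the same counts was fitted as an alternative, and a table scaled to each library was not tested.

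The unfiltered counts were fitted in DESeq2 1.42.0 (R 4.3.3) on all rows with at least 10 counts over the 6 libraries, by a two-sided Wald test, with size factors from median ratios, independent filtering at 0.1 and Benjamini-Hochberg adjustment over all rows, with a threshold of 0.05. The study's methods name this test, but the study also required a 2-fold change, which was not applied here. No adjusted p was given for 2556 rows. Normalized counts are counts divided by the size factors, which were 0.867 to 1.12. Alternatives were edgeR 4.0.16, limma 3.58.1 (voom), other size factors and filters, a replicate block and each library left out. Scripts were tested on simulated data. Libraries of one group differed by more than sampling noise (chi-square per degree of freedom 16.8 to 43.4), so each counted as 1 replicate.

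The members and lists were chosen with earlier results of these data known. Values in every library are given for members with a p under 0.05, with groups that do not overlap, or named in advance (Ccnd1, Ccnd2, Ccnd3, Cdkn1a, Mki67, Top2a, Pcna and Cdk1). Other pathway genes are named if called or of lowest p in their list. Marker lists covered B and plasma, germinal centre B, T, acinar, granular duct, other duct, myoepithelial and endothelial cells, macrophages and fibroblasts, and 1 marker is not reported singly here. Positions and exon lengths come from GENCODE M21 (GRCm38), in which all 40 symbols matched 1 gene, and promoters from RefSeq. Intervals cover the model's error between libraries.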

Additional observations from a re-analysis of the deposited data

How the results depend on the processing

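Under every alternative run, 0 of the 40 genes were called, except 1 with total counts as size factors (Ccnd3) and 0 to 1 when a library was left out (Ccnd1 without DKO 5). Pathway genes called were 0, except 2 with total counts. Over all rows 539 were called, compared with 10 by edgeR, 7 by limma-voom, 1469 with total counts, 149 to 817 when a library was left out and 286 without both libraries numbered 1. Total counts shift the median of all rows to -0.23. On that scale the median log2 fold changes were -0.34 for G1 genes, -0.15 for inhibitors, -0.25 for transcription factors, -0.27 for replication genes and 0.24 for the 16 G2 and mitotic genes, and the log2 ratios of summed counts were -0.12, -0.17, -0.33, -0.24 and 0.25 in that order and -0.11 for all 40. Leaving out a library moved the replication median between -0.12 and 0.14. The sign of Cdkn1a turned with total counts (-0.061), without both libraries numbered 1 (-0.0086) and when a library was left out (-0.11 to 0.33, including -0.0027), and that of Pcna with total counts (-0.060). In all, 18 of the 40 genes turned sign when 1 library was left out, none of them called. Other causes were not tested.

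Whether the shared numbers mark paired libraries is not given in the sources used here. Deviations of same-numbered libraries correlated at -0.13, -0.02 and -0.26 over 11489 genes, and those of other numbers at -0.39 to 0.45. No library correlated best with its own number. The highest values were WT 5 with DKO 1 (0.45), WT 4 with DKO 5 (0.44) and WT 1 with DKO 4 (0.27). Deviations within a group of few libraries depend on each other, so these correlations cannot decide whether libraries were paired. In the G2 and mitotic genes WT 1 was highest of its group in 16 of 16 and DKO 1 in 15. A crossed pairing was not tested. A fit with the number as a replicate block called 343 rows (1.84%) and 0 of the 40 genes, and it changed no call among them. Counts under 20 in a library, common among the mitotic genes, limit what fold change can be seen.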

Other observations

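Markers of other cell types of the gland, tested in the same DESeq2 fit, moved with the group labels as follows. In this fit 1.88% of all rows were called lower and 1.02% higher in the libraries labelled DKO. Of 8 myoepithelial markers 7 were lower in the libraries labelled DKO, where their normalized counts summed to 5956 to 7808, compared with 10807 to 11639 in those labelled WT. Granular duct markers, secreted kallikreins and growth factors among them, were lower for 6 of 7, and those of other ducts for 1 of 7. Acinar markers were higher for 3 of 8. Macrophage markers were lower for 4 of 7 and fibroblast markers for 2 of 6. Of 6 endothelial markers 0 passed the test and 3 had an unadjusted p under 0.05, compared with 12.2% of all rows. By edgeR and by limma-voom 3 of the 31 marker calls held, those of Agt (acinar), Klk1b24 and Klk1b4 (granular ducts), and 0 of 8 myoepithelial markers passed either (lowest adjusted p 0.0562 and 0.0560). The part of these cell types in the levels of the cell cycle genes was not tested.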
